A study of Oryza sativa Japonica Group with 29 samples.

Results

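CBL-interacting protein kinases (CIPKs) are plant serine/threonine kinases that read calcium signals. A stress raises calcium in the cell, a calcineurin B-like protein (CBL) binds the calcium, and the CBL then docks on the NAF motif of a CIPK, releases the kinase from its own inhibitory domain and brings it to a membrane. In roots the pathway is best known for setting the activity of potassium channels, sodium exporters and nitrate and ammonium transporters, and several rice CIPKs have been studied for tolerance to drought, cold and salt.

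The data described here are the transcript levels of 8 rice CIPK genes, taken by their locus identifiers from 55986 loci, in 11 root RNA libraries of Oryza sativa Japonica Group. All 8 passed the filter on low values, which left 23699 genes to test. The study compared seedlings that over-express OsNMCP1 (OE), the gene of a lamin-like nuclear protein that its title links to the chromatin remodeller SWI3C, with the ZH11 wild type (WT). Roots came from 25-day-old hydroponic seedlings that were either deprived of water for 3 h (drought) or kept in normal culture. There were 3 OE drought, 3 WT drought, 2 OE normal and 3 WT normal libraries, described as biological replicates, and the labels name no promoter or transgene line. The drought libraries carry a genomic DNA entry in the molecule field but an RNA title, and were taken as RNA by title. Their sample numbers form a block apart from those of the normal libraries. A difference in preparation or sequencing that went with condition therefore cannot be told apart from drought. Another 18 ATAC-seq samples were not analysed here.

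The over-expressed gene checked the genotype labels. OsNMCP1 averaged 408 ± 54.7 TPM, a level per transcript length, in OE drought and 37.3 ± 9.14 in WT drought (SD, n = 3 each). It averaged 176 ± 12.1 TPM in OE normal (SD, n = 2) and 36.5 ± 1.05 in WT normal (SD, n = 3), so the OE libraries were above the WT libraries in both conditions. The depth implied by the deposited coverage was 7.0 to 7.14 gigabases in OE drought, 8.23 to 11.95 in WT drought, 5.79 to 7.34 in OE normal and 8.56 to 9.29 in WT normal. Replicates were less alike after drought: the correlation between libraries was 0.961 to 0.976 in OE drought and 0.927 to 0.982 in WT drought, against 0.995 in OE normal and 0.995 to 0.996 in WT normal. WT drought replicate 3 stood apart from the other two of its group, and where leaving it out changed a call on the 8 kinases, the value without it is given. The summed level of the root silicon transporters LSI1 and LSI2 was 91.9 to 251 TPM in OE drought, 536 to 609 in WT drought, 1710 to 1870 in OE normal and 1893 to 1939 in WT normal. The summed level of the photosynthesis genes CAB2R and RBCS was 14.2 to 100 TPM in OE drought, 223 to 372 in WT drought, 175 to 178 in OE normal and 431 to 627 in WT normal. CAB2R made up most of that sum. After drought RBCS alone overlapped between genotypes, at 0.689 to 4.81 TPM in OE drought and 0.359 to 8.79 in WT drought. None of these 4 markers was at 0 in any library, and their part in the results below was not tested. In whole roots, fewer cells of a type and less RNA per cell cannot be told apart.

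The kinases spanned a wide range of levels, from CIPK23 at 217 ± 6.96 TPM to CIPK03 at 2.35 ± 0.175 TPM in WT normal roots (SD, n = 3 each). In OE normal and in WT normal roots the order by level was CIPK23, CIPK15, CIPK14, CIPK09, CIPK01, CIPK24, CIPK12 and CIPK03, and the libraries of no neighbouring pair overlapped. After drought CIPK09 moved to the top of the order in both genotypes. In OE drought roots CIPK01 and CIPK15 overlapped, as did CIPK03 and CIPK12. In WT drought roots CIPK23, CIPK15, CIPK01 and CIPK14 overlapped from neighbour to neighbour, and so did CIPK03 and CIPK12. The summed level of the 8 genes was 1068 to 1293 TPM in OE drought, 915 to 1158 in WT drought, 510 to 544 in OE normal and 491 to 545 in WT normal. CIPK09 made up 36.4 to 40.1% of that sum in OE drought and 28.3 to 47.6% in WT drought, but 11.4 to 12% in OE normal and 8.12 to 8.88% in WT normal.

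**Figure D1:**
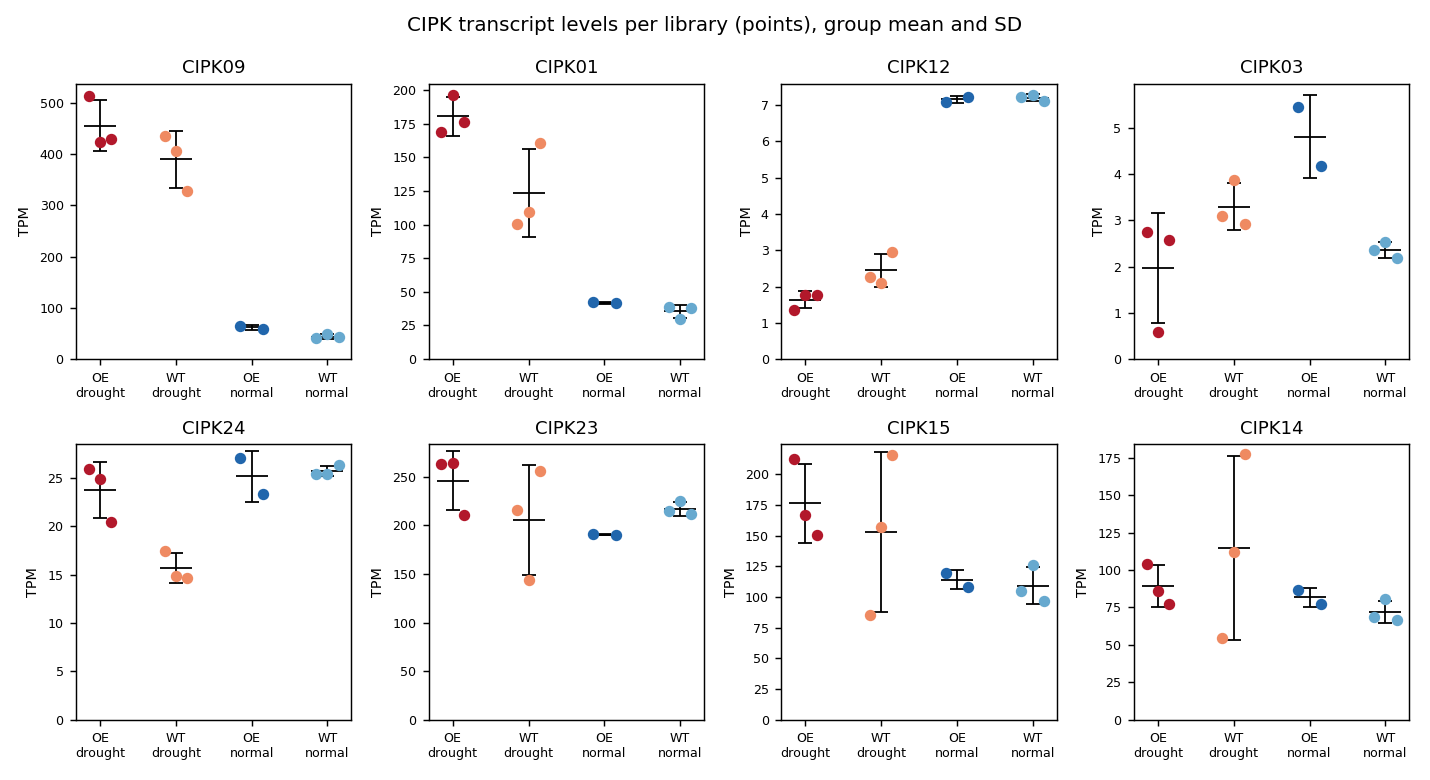
Level of each CIPK gene in TPM (vertical axes, 1 panel per gene, each with its own scale from 0) in OE drought, WT drought, OE normal and WT normal libraries. Points are libraries, horizontal marks the group mean and bars its SD (n = 3, 3, 2 and 3); CIPK09 and CIPK01 stand high and CIPK12 low in both drought groups, and the drought points scatter more widely than the normal ones.

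Each log2 difference compares group means of log2(TPM + 1) and was tested with limma across the 23699 genes, and adjusted p-values are Benjamini-Hochberg values over all of them with a threshold of 0.05. The scale understates changes of genes near 1 TPM, such as CIPK12 and CIPK03. TPM values are shares of a library, and the median gene of the drought libraries shifted: by -0.56 in the OE drought response, -0.35 in the WT drought response, -0.20 for OE against WT after drought and 0.03 for OE against WT in normal culture. A change of size near those medians therefore depends on the scaling. Where median-ratio scaling, which sets the median gene to about 0, changed a call or a sign among the 8 kinases, its value is given beside the TPM value.

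Between drought and normal libraries 4 of the 8 kinases were called in OE roots, 2 higher and 2 lower, where 74.0% of all tested genes were called (21.0% higher and 53.0% lower). In WT roots 4 of 8 were also called, 2 higher and 2 lower, where 62.7% of all tested genes were called (20.1% higher and 42.7% lower). CIPK09 and CIPK01 were higher and CIPK12 lower after drought in both genotypes, under each alternative run. CIPK03 was called lower in OE and CIPK24 lower in WT, and both of those calls were lost with median-ratio scaling. The CIPK03 call was also lost with only the libraries compared in the fit (adjusted p = 0.0604) and without OE drought replicate 2. The median of the 8 differences was 0.24 in OE roots and 0.37 in WT roots, against -0.56 and -0.35 over all tested genes. The drought and normal libraries did not overlap for 6 of the 8 kinases in OE roots and 5 in WT roots, against 82.8% and 73.6% of all tested genes.

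CIPK09 (LOC_Os03g03510, chromosome 3, 1514622 to 1519297, minus strand) encodes a kinase reported to bind the CBL-type sensor of the salt pathway in rice. Its level was 514, 424 and 429 TPM in the OE drought libraries, 435, 407 and 327 in WT drought, 65.3 and 58.1 in OE normal, and 40.8, 48.5 and 42.5 in WT normal. Every drought library was above every normal library, and the OE and WT drought libraries overlapped. The drought difference was 2.86 ± 0.17 in OE roots (SE, adjusted p = 2.13e-07), a 7.27-fold rise. In WT roots it was 3.12 ± 0.18 (SE, adjusted p = 2.99e-07), an 8.66-fold rise, and the 2 responses differed by -0.25 (95% interval -0.80 to 0.30, adjusted p = 0.508) on TPM and by 0.01 with median-ratio scaling (adjusted p = 0.982). CIPK09 was the most drought-induced of the 8 genes in both genotypes.

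CIPK01 (LOC_Os01g18800, chromosome 1, 10622795 to 10627552, plus strand) had 169, 197 and 176 TPM in OE drought, 100.1, 109 and 161 in WT drought, 42.3 and 41.4 in OE normal, and 38.6, 30.1 and 37.8 in WT normal. All 3 OE drought libraries lay above all 3 WT drought libraries, and WT drought replicate 3 was the nearest of them. The drought difference was 2.08 ± 0.22 in OE roots (SE, adjusted p = 9.50e-06), 4.23-fold, and 1.75 ± 0.23 in WT roots (SE, adjusted p = 8.59e-05), 3.36-fold. The responses differed by 0.33 (95% interval -0.37 to 1.04, adjusted p = 0.492).

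CIPK12 (LOC_Os01g55450, chromosome 1, 31943528 to 31948580, minus strand), a kinase whose over-expression has been studied for drought tolerance in rice, was lower after drought. It stood at 1.36, 1.77 and 1.78 TPM in OE drought, 2.26, 2.11 and 2.96 in WT drought, 7.09 and 7.23 in OE normal, and 7.24, 7.28 and 7.10 in WT normal. The normal libraries of the 2 genotypes were almost level, and no drought library reached them. The drought difference was -1.63 ± 0.15 in OE roots (SE, adjusted p = 2.77e-06) and -1.26 ± 0.15 in WT roots (SE, adjusted p = 4.50e-05). The responses differed by -0.37 (95% interval -0.83 to 0.09, adjusted p = 0.233), and OE drought libraries did not overlap WT drought libraries.

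CIPK24 (LOC_Os06g40370, chromosome 6, 24038926 to 24044791, minus strand) is the rice SOS2 kinase, which together with CBL4 activates the sodium exporter SOS1. Its level was 25.9, 24.9 and 20.5 TPM in OE drought, 17.5, 14.9 and 14.7 in WT drought, 27.0 and 23.3 in OE normal, and 25.4, 25.4 and 26.4 in WT normal. The WT drought libraries were the low ones, below every other library, while OE drought libraries overlapped OE normal libraries. In WT roots the drought difference was -0.68 ± 0.15 (SE, adjusted p = 0.00224) on TPM, but -0.30 with median-ratio scaling (adjusted p = 0.114). In OE roots the drought difference was -0.08 ± 0.14 (SE, adjusted p = 0.615) on TPM and 0.56 with median-ratio scaling (adjusted p = 0.00703), so its direction in OE roots depends on the scaling. The OE response minus the WT response was 0.60 ± 0.21 (SE, adjusted p = 0.0620) on TPM and 0.86 with median-ratio scaling (adjusted p = 0.0213). It was also called without OE drought replicate 3 (0.70, adjusted p = 0.0280), without OE normal replicate 1 (0.70, adjusted p = 0.0255), without a filter on low values (adjusted p = 0.0477) and on FPKM (adjusted p = 0.0461).

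CIPK23 (LOC_Os07g05620, chromosome 7, 2643540 to 2647873, minus strand) is the kinase that with CBL1 activates the root potassium channel AKT1 in rice. It was the most abundant member in normal roots, with 264, 264 and 211 TPM in OE drought, 216, 144 and 256 in WT drought, 191 and 189.9 in OE normal, and 214, 225 and 212 in WT normal. WT drought libraries spread on both sides of the WT normal ones, whereas OE drought libraries all lay above OE normal ones. The drought difference was 0.36 ± 0.15 in OE roots (SE, adjusted p = 0.0518) and -0.12 ± 0.16 in WT roots (SE, adjusted p = 0.530). With median-ratio scaling the OE value was 1.02 (adjusted p = 0.000180) and the WT value 0.28 (adjusted p = 0.147), so the WT sign turned. The OE difference was also called with the filter at 5 TPM, on FPKM, and without OE drought replicate 3, WT drought replicate 1 or WT drought replicate 2 (adjusted p = 0.0140 to 0.0486). The OE response minus the WT response was 0.48 on TPM (95% interval -0.01 to 0.97, adjusted p = 0.147) and 0.74 with median-ratio scaling (adjusted p = 0.0415). Without WT drought replicate 3 it was 0.66 (adjusted p = 0.0362).

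CIPK03 (LOC_Os07g48760, chromosome 7, 29190282 to 29194556, plus strand) was the lowest gene in normal roots. It was the only one of the 8 called for a difference in drought response between genotypes, and several alternatives lost that call. It had 2.74, 0.594 and 2.58 TPM in OE drought, 3.10, 3.87 and 2.92 in WT drought, 5.44 and 4.18 in OE normal, and 2.36, 2.53 and 2.18 in WT normal. The OE normal libraries were the highest of all, and OE drought replicate 2 was far below its group. In OE roots CIPK03 fell by 1.06 ± 0.27 (SE, adjusted p = 0.00412), and in WT roots the difference was 0.35 ± 0.28 (SE, adjusted p = 0.290). The OE response minus the WT response was -1.41 ± 0.39 (SE, adjusted p = 0.0265), the only call among the 8 genes for that difference, where 20.6% of tested genes were called, 5.73% higher and 14.9% lower. Without OE drought replicate 2 the response difference was -1.01 (adjusted p = 0.106) and the drought difference in OE roots -0.66 (adjusted p = 0.0666). The response difference was also not called with 1 spread for all groups (adjusted p = 0.0531), without WT drought replicate 1 (-1.44, adjusted p = 0.11), without WT drought replicate 2 (-1.32, adjusted p = 0.156) or with median-ratio scaling (-1.22, adjusted p = 0.0532), and with that scaling the drought difference in OE roots was not called either (-0.59, adjusted p = 0.0795).

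**Figure D2:**
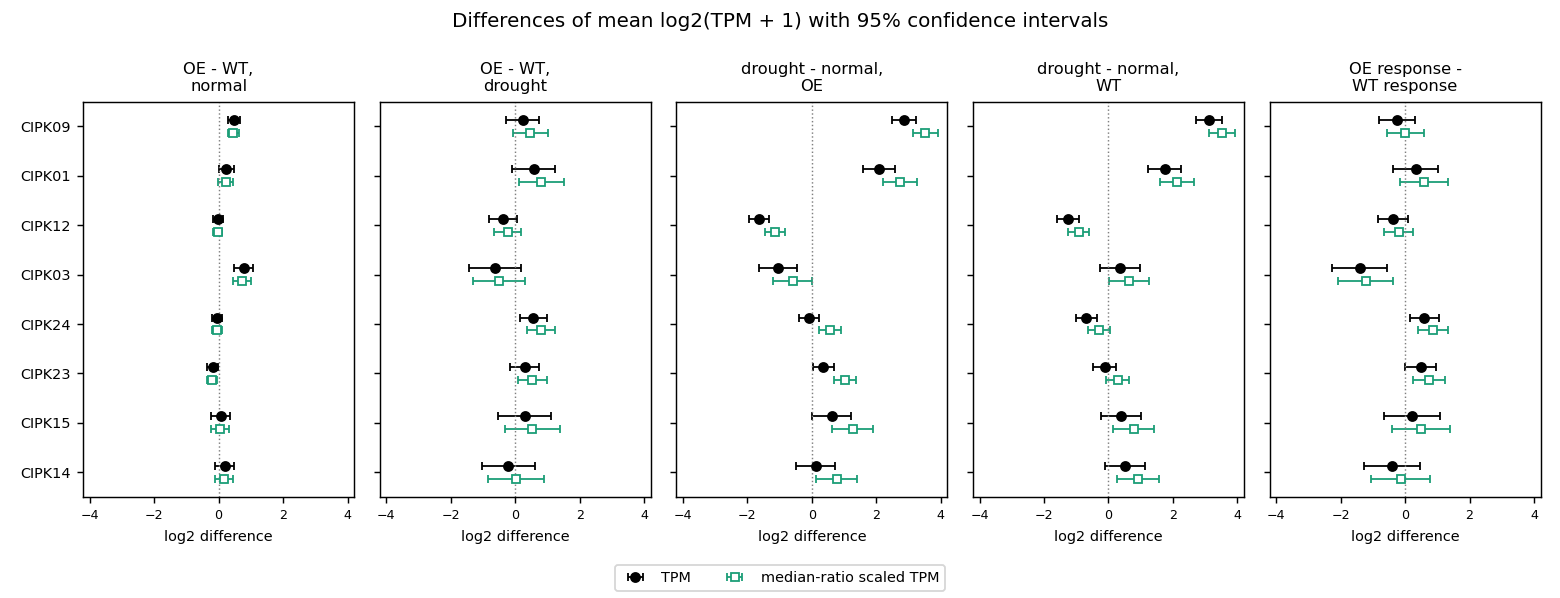
Log2 difference of each CIPK gene (rows) in 5 comparisons (panels, titled first group minus second), with 95% confidence intervals from limma. Filled circles are TPM and open squares median-ratio scaled TPM; CIPK09 and CIPK01 lie right of 0 and CIPK12 left of 0 in both drought panels on both scales, while CIPK24 crosses 0 in OE.

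CIPK14 (LOC_Os12g02200, chromosome 12, 679074 to 682269, minus strand) and CIPK15 (LOC_Os11g02240, chromosome 11, 630580 to 633695, minus strand) are near-identical copies on the duplicated ends of chromosomes 11 and 12. Both have been studied in defence responses to microbial elicitors, and CIPK15 also links low oxygen and sugar shortage to the kinase SnRK1A and the transcription factor MYBS1. How the authors' counting split reads between the copies is not given in the sources used here, so each single level is uncertain. CIPK14 had 104, 86.3 and 77.3 TPM in OE drought, 54.9, 112 and 178 in WT drought, 86.4 and 77.4 in OE normal, and 68.9, 80.7 and 66.6 in WT normal. CIPK15 had 213, 167 and 150 TPM in OE drought, 85.6, 157 and 216 in WT drought, 120 and 109 in OE normal, and 105, 126 and 96.8 in WT normal. Both copies varied most among WT drought libraries, low in replicate 1 and high in replicate 3, and all 3 OE drought libraries of CIPK15 were above both OE normal libraries.

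With all 11 libraries and group weights, neither copy was called for drought on TPM. For CIPK15 the drought difference was 0.61 ± 0.27 in OE roots (SE, adjusted p = 0.0616) and 0.39 ± 0.28 in WT roots (SE, adjusted p = 0.247). For CIPK14 it was 0.11 ± 0.28 in OE roots (SE, adjusted p = 0.716) and 0.52 ± 0.29 in WT roots (SE, adjusted p = 0.137). With median-ratio scaling all 4 were called higher: CIPK15 at 1.27 (adjusted p = 0.00252) in OE and 0.79 (adjusted p = 0.0370) in WT, CIPK14 at 0.77 (adjusted p = 0.0347) in OE and 0.91 (adjusted p = 0.0203) in WT. On TPM, the WT differences varied with the library left out. Without WT drought replicate 1 CIPK14 was called in WT roots (0.96, adjusted p = 0.0227), and without WT drought replicate 3 the WT differences were 0.13 for CIPK14 (adjusted p = 0.644) and 0.09 for CIPK15 (adjusted p = 0.741). CIPK15 was called in OE roots with only the libraries compared in the fit, and without OE drought replicate 3, WT drought replicate 1, WT normal replicate 2 or WT normal replicate 3 (adjusted p = 0.0254 to 0.0470). The TPM of both copies added together, an alternative chosen after seeing the data, differed by 0.43 (adjusted p = 0.179) in OE roots and 0.45 (adjusted p = 0.192) in WT roots.

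Within groups the 2 copies moved together, with a Pearson correlation of 0.99 for their deviations from the group means over 11 libraries. The WT drought libraries, which spread most for both copies, weigh most in that value. Reads of such similar copies may be shared between them. Their ratio, CIPK15 over CIPK14, was a comparison chosen after its values were seen. It was 2.04, 1.93 and 1.95 in OE drought, 1.56, 1.40 and 1.21 in WT drought, 1.39 and 1.40 in OE normal, and 1.52, 1.56 and 1.45 in WT normal. Every OE drought library had a higher ratio than every other library. A two-sided exact permutation test of OE drought against WT drought gave p = 0.10, the smallest that 3 against 3 libraries allow, and 0.267 after adjustment over 4 such comparisons. OE drought against OE normal gave an exact permutation p of 0.20, again the smallest possible.

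**Figure D3:**
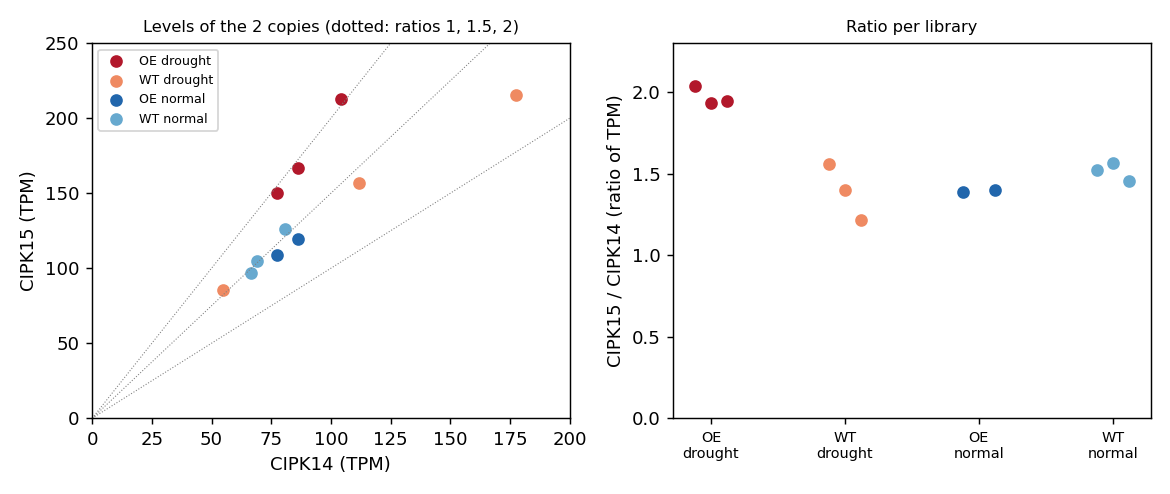
Left, level of CIPK15 against CIPK14 in TPM for each of the 11 libraries, with dotted lines for fixed ratios. Right, the ratio of CIPK15 to CIPK14 per library by group; the 3 OE drought points lie at 1.93 to 2.04, and all other libraries at 1.21 to 1.56.

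In normal culture OE roots held more CIPK03 and CIPK09 than WT roots, 2 of 8 genes called, both higher, where 28.1% of all tested genes were called and 17.3% were called higher. CIPK03 averaged 4.81 ± 0.891 TPM in OE normal (SD, n = 2) and 2.35 ± 0.175 in WT normal (SD, n = 3), a log2 difference of 0.79 ± 0.13 (SE, adjusted p = 0.00127). CIPK09 averaged 61.7 ± 5.13 TPM in OE normal (SD, n = 2) and 43.9 ± 4.03 in WT normal (SD, n = 3), a difference of 0.48 ± 0.09 (SE, adjusted p = 0.00173). The OE libraries of both genes lay above all WT libraries. CIPK01 and CIPK23 also did not overlap, 4 of 8 genes against 57.0% of all tested genes, but CIPK01 differed by 0.24 (adjusted p = 0.131) and CIPK23 by -0.19 (adjusted p = 0.0900). CIPK23 was called lower with only the libraries compared in the fit (-0.19, adjusted p = 0.0199), with median-ratio scaling (-0.21, adjusted p = 0.0450) and without WT drought replicate 2 (adjusted p = 0.0371). The other 4 differences ran from -0.03 for CIPK24 to 0.19 for CIPK14. With 1 spread for all groups neither CIPK03 (adjusted p = 0.358) nor CIPK09 (adjusted p = 0.211) was called.

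After drought none of the 8 kinases was called between OE and WT roots, where limma called 20.8% of tested genes, 7.01% higher and 13.8% lower, and CIPK24 was the only one of the 8 with an unadjusted p under 0.05. CIPK24 averaged 23.8 ± 2.89 TPM in OE drought and 15.7 ± 1.55 in WT drought (SD, n = 3 each), a log2 difference of 0.57 ± 0.19 (SE, adjusted p = 0.0606). With median-ratio scaling it was 0.80 (adjusted p = 0.0208), and without WT drought replicate 3 it was 0.52 (adjusted p = 0.0482). It was also called without OE drought replicate 3, without either OE normal library, without a filter on low values and with 1 spread for all groups (adjusted p = 0.00785 to 0.0435). CIPK01 averaged 180 ± 14.4 TPM in OE drought and 123 ± 32.9 in WT drought (SD, n = 3 each), a difference of 0.57 ± 0.30 (SE, adjusted p = 0.195). Without WT drought replicate 3, which held the highest CIPK01 level of its group, that difference was 0.78 (adjusted p = 0.0381), and with 1 spread for all groups its adjusted p was 0.0291. The libraries of CIPK01, CIPK24, CIPK12 and CIPK03 did not overlap between genotypes, 4 of 8 genes against 40.0% of all tested genes, the first pair higher and the second pair lower in OE. CIPK09, the most induced gene, differed by 0.23 (95% interval -0.29 to 0.75, adjusted p = 0.521). CIPK14 differed by -0.22 on TPM (adjusted p = 0.718) and by 0.02 with median-ratio scaling (adjusted p = 0.976).

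CIPK21 and CIPK17, which are not among the 8 kinases, also rose after drought in both genotypes. Of 25 other CIPK loci listed, 16 had a name that could be accepted and 13 were tested. Between drought and normal libraries 8 of the 13 were called in OE roots, 3 higher and 5 lower, with a median of -0.41. Of all tested genes 74% were called there, 21% higher and 53% lower. In WT roots 6 were called, 3 higher and 3 lower, with a median of -0.10. There 62.7% of all tested genes were called, 20.1% higher and 42.7% lower. CIPK21 rose by 2.74 in OE roots (adjusted p = 5.89e-07) and 3.10 in WT roots (adjusted p = 6.26e-07). Its level was 71.7 to 80.7 TPM in the OE drought libraries, 46.5 to 116 in WT drought, 10.5 in both OE normal libraries and 8.22 to 8.39 in WT normal. CIPK17 rose by 3.78 in OE roots (adjusted p = 5.18e-07) and 2.72 in WT roots (adjusted p = 1.33e-05). CIPK18 fell in both, with log2 differences of -1.83 in OE roots (adjusted p = 3.10e-06) and -1.204 in WT roots (adjusted p = 0.000153).

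Between genotypes, 5 of the 13 other CIPKs were called after drought, 1 higher and 4 lower, where 20.8% of all tested genes were called. In normal culture 4 were called, 2 higher and 2 lower, against 28.1% of all tested genes. With median-ratio scaling 1 of the 13 was called higher and 2 lower in each condition. Of the 23699 tested genes, that scaling called 4390 after drought and 7044 in normal culture. CIPK02 was lower in OE roots than in WT roots in both conditions, with log2 differences of -1.35 after drought (adjusted p = 0.000278) and -0.26 in normal culture (adjusted p = 0.00395). With 1 spread for all groups the difference in normal culture was not called (adjusted p = 0.423). That setting also lost the normal culture calls of CIPK07, CIPK17 and CIPK21 (adjusted p = 0.311 to 0.872). The CIPK21 call was lost under several other alternatives too. CIPK02 stood at 98.7, 93.7 and 90.6 TPM in OE drought, 271, 232 and 224 in WT drought, 250 and 235 in OE normal, and 288, 298 and 287 in WT normal. CIPK02 had a lower drought response in OE roots than in WT roots (-1.09, adjusted p = 0.00133), as did CIPK06 (-1.73, adjusted p = 0.00964), though CIPK06 was not called without WT drought replicate 2 (-1.63, adjusted p = 0.0795). With median-ratio scaling 6 of the 13 were called higher and 4 lower after drought in OE roots, and 4 higher and 1 lower in WT roots.

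Of 10 loci listed for the CBL calcium sensors that bind these kinases, 7 had an accepted name and all 7 were tested. After drought 5 were called in OE roots, 2 higher and 3 lower, and 3 in WT roots, 1 higher and 2 lower. Over all tested genes 74% were called in OE roots and 62.7% in WT roots. CBL1, the partner of CIPK23 at the potassium channel, had 114, 111 and 102 TPM in OE drought, 63.3, 73.0 and 104 in WT drought, 59.1 and 51.5 in OE normal, and 47.9, 53.7 and 48.2 in WT normal. All drought libraries were above the normal libraries of their genotype, with a rise of 0.97 in OE roots (adjusted p = 0.000356) and 0.64 in WT roots (adjusted p = 0.00862); without WT drought replicate 2 the WT rise was not called (0.69, adjusted p = 0.0617). With median-ratio scaling 4 CBL genes were called higher in each genotype after drought, and 1 lower in OE.

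Of 10 loci listed as transporters and signalling partners of these kinases, 6 had an accepted name. After drought 5 of the 6 were called in OE roots, 1 higher and 4 lower, and 4 in WT roots, 1 higher and 3 lower. Over all tested genes 74% were called in OE roots and 62.7% in WT roots. With median-ratio scaling 1 of the 6 was called higher and 3 lower in OE roots, and 1 higher and 2 lower in WT roots. That scaling called 15787 of the 23699 tested genes in OE roots and 13203 in WT roots. HAK1, a high-affinity potassium transporter, had 39.4, 32.7 and 41.6 TPM in OE drought, 179, 174 and 81.7 in WT drought, 157 and 166 in OE normal, and 164, 172 and 166 in WT normal. It was lower in OE than in WT after drought (log2 difference -1.83, adjusted p = 0.00127), and its OE response was below its WT response (-1.78, adjusted p = 0.00200). SNRK1A, the kinase downstream of CIPK15, fell in both, by log2 differences of -1.24 in OE roots (adjusted p = 6.15e-06) and -0.66 in WT roots (adjusted p = 0.00108), though the WT fall was not called with median-ratio scaling (-0.27, adjusted p = 0.0548). MYBS1 was lower after drought in WT roots (-1.57, adjusted p = 0.00564), but not called without WT drought replicate 1 or 2. Its OE response was above its WT response (1.94, adjusted p = 0.0309), a call that several alternatives lost. HAK5, near 1 TPM, was the 1 partner called higher in both genotypes, by 0.63 in OE roots and 0.81 in WT roots (adjusted p = 0.00959). Its WT normal libraries held 0.074 to 0.241 TPM. Under alternatives that kept all the compared libraries its WT rise ran from 0.56 to 2.14. AMT1-3 had the lowest log2 differences of the list, -4.65 in OE roots (adjusted p = 6.84e-06) and -2.17 in WT roots (adjusted p = 0.00278). Its WT drought libraries were unlike, at 174, 142 and 20.1 TPM. With 1 library left out the WT difference was as small as -1.20. It was not called with only the libraries compared in the fit (adjusted p = 0.0516). AKT1, the channel that CIPK23 activates, fell by 1.06 in OE roots (adjusted p = 0.00745), but with median-ratio scaling it was -0.44 (adjusted p = 0.252).

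**Figure D4:**
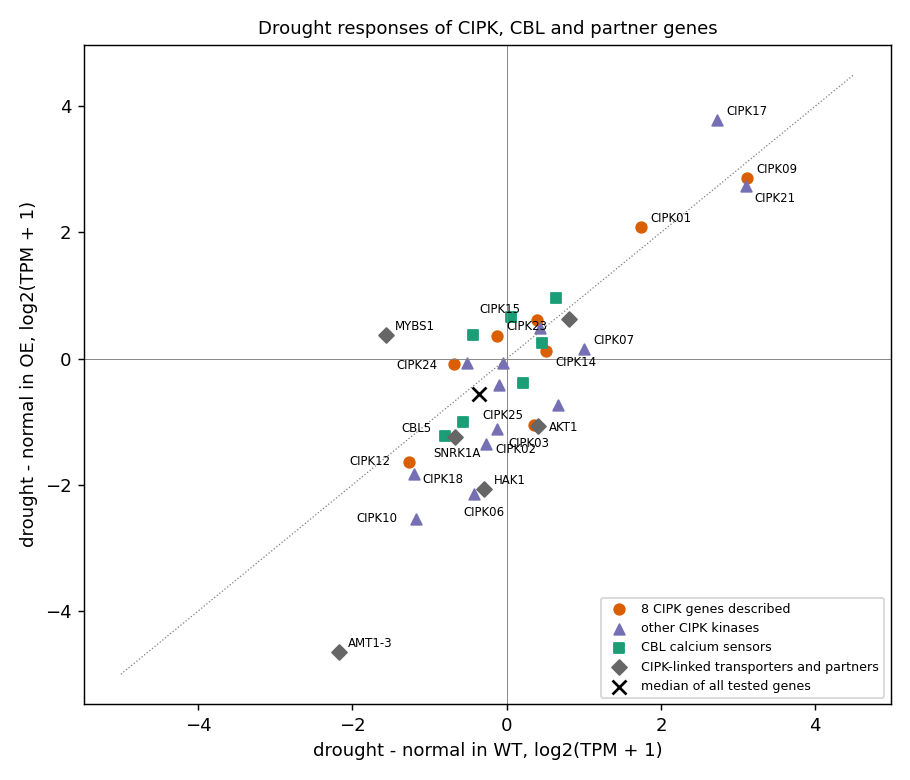
Drought response on the log2(TPM + 1) scale in OE roots (vertical axis) against that in WT roots (horizontal axis) for the 8 CIPK genes described and the named loci of the other lists; the dotted line marks equal responses and the cross the median of all tested genes (-0.56 in OE, -0.35 in WT). CIPK09, CIPK21, CIPK17 and CIPK01 lie at the upper right, and CIPK12 at the lower left with CIPK18.

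The loci whose levels tracked each kinase most closely were found by Pearson correlation of log2(TPM + 1) over the 11 libraries, which share group and composition, so the values only describe likeness. CIPK09 was most like LOC_Os03g61490 and LOC_Os04g37490, at 0.998 each. LOC_Os03g61490 averaged 194 TPM in OE drought, 143 in WT drought, 16.8 in OE normal and 10.3 in WT normal. CIPK12 was most like LOC_Os02g10380 and LOC_Os02g35620, at 0.997 each, and CIPK01 most like LOC_Os02g27310 at 0.995. CIPK24 was most like LOC_Os02g12380 at 0.987, which averaged 23.4 TPM in OE drought, 9.43 in WT drought, 27.1 in OE normal and 29.8 in WT normal, low in the same group as CIPK24. The closest loci of CIPK03, CIPK14, CIPK15 and CIPK23 reached only 0.961, 0.943, 0.943 and 0.933.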

How the data were processed

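RNA levels were read from 11 tables of 55986 loci. TPM, the measure tested, FPKM, used as an alternative, and coverage (signal), used only for the implied depth, were deposited by the authors. Tools listed in the submitters' processing notes, without roles, include StringTie 1.3.6, STAR 1.5.2, SAMtools 1.9, FastQC 0.11.8, fastp and DESeq2. Build, annotation and strandedness: not given in the sources used here. Coordinates are those of the files. Reads of near-identical copies, and of overlapping or antisense genes if strand was not used, cannot be told apart; no listed locus overlapped any of the 8 kinases. The tables were not tested with a count model, since TPM is no count.

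The test used limma 3.58.1 (R 4.3.3) on log2(TPM + 1) of the 23699 genes that reached 1 TPM in 2 or more libraries. It fitted group means over all 11 libraries with array weights per group and a trend in the prior variance (residual degrees of freedom 7, prior 3.93); tests were two-sided and Benjamini-Hochberg adjusted, threshold 0.05. The interaction subtracts the drought response of WT from that of OE. Weights were used because the drought groups spread more (median SD on the log2 scale 0.253 in OE drought and 0.27 in WT drought, against 0.0749 in OE normal and 0.0737 in WT normal). The procedure was tested on simulated data with independent normal noise and no shift of the median gene. That simulation therefore cannot speak to the dependence on scaling, and its outcome is not given here. Each p-value rests on the spread between libraries, called biological replicates in the series. The 2 drought responses share no library, but each comparison shares libraries with others.

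The 8 genes, the lists and the weights were chosen with earlier results of these data known. The rule for named genes took the 8 kinases, OsNMCP1, up to 4 called genes per list and comparison by lowest adjusted p, and per kinase the 2 loci most correlated with it; the text gives part of these. Of 60 listed loci, 42 names were accepted, where the reference table (assembly ASM3414082v1) held the symbol on the same chromosome within 5 Mb at a length ratio of 0.9 to 1.1. Alternatives were no weights, only the libraries compared, a replicate block, a pseudocount of 0.1, no filter, a filter at 5 TPM, median-ratio scaling, FPKM, and leaving out each library. Tables were joined and plotted in Python 3.11.15 (pandas 2.3.3, numpy 2.4.6, matplotlib 3.10.9).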

Additional observations from a re-analysis of the deposited data

Results flagged for a closer look

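The drought response of CIPK03 in OE roots minus that in WT roots was -1.41 on the log2 scale (adjusted p = 0.0265, limma interaction term), which is why it is listed here. Its level was 0.594 to 2.74 TPM in OE drought, 2.92 to 3.87 in WT drought, 4.18 to 5.44 in OE normal and 2.18 to 2.53 in WT normal. The call was lost without OE drought replicate 2, at -1.01 (adjusted p = 0.106). It was also lost without WT drought replicate 1 (adjusted p = 0.11) or WT drought replicate 2 (adjusted p = 0.156). With 1 spread for all groups (adjusted p = 0.0531) or median-ratio scaling (adjusted p = 0.0532) it was not made either. A filter at 5 TPM drops the gene.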

How the results depend on the processing

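For the 8 kinases, 700 of 747 values under alternatives kept their side of the threshold, while 11 lost and 35 gained a call. Another 1 was called with its sign reversed: CIPK24 after drought in OE roots, 0.56 with median-ratio scaling. A change of sign between values that were not called, as for CIPK23 after drought in WT roots, was counted as kept. With 1 spread for all groups, 417 genes were called for OE against WT in normal culture (6652 with group weights) and 9144 after drought (4933); the kinases called were 0 in normal culture, 2 after drought and 0 for the interaction. Without a filter the kinases called were 1 for OE against WT after drought and 2 for the interaction. A filter at 5 TPM, which drops CIPK03, gave 1 in normal culture and 0 for the interaction. Median-ratio scaling gave 1 for OE against WT after drought, 7 for drought in OE roots and 2 for the interaction. Of the 23699 tested genes, that scaling called 4390, 15787 and 4043 in the same order. FPKM gave 2 kinases for the interaction. The cause of these changes was not tested, except that the filter at 5 TPM leaves out CIPK03. Median-ratio scaling moved the share of calls that were higher to 51.5% for drought in OE (28.4% on TPM), 51.8% for drought in WT (32%), 57.1% for OE against WT after drought (33.7%) and 50.7% for the interaction (27.8%).

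Leaving out each library in turn, genes called ranged from 5016 to 6884 for OE against WT in normal culture, 1407 to 8388 after drought, 14338 to 17905 for drought in OE, 9017 to 16536 for drought in WT and 1712 to 7797 for the interaction. The kinases called ranged from 2 to 3, 0 to 2, 3 to 6, 4 to 5 and 0 to 2 in the same order. For OE against WT after drought, 2780 and 1793 genes were called when OE drought replicate 1 or 2 was left out, and 1407, 1417 and 8388 when WT drought replicate 1, 2 or 3 was left out. For the interaction the counts were 2181 without OE drought replicate 2, and 1912, 1712 and 7797 when WT drought replicate 1, 2 or 3 was left out. For drought in WT, 9017 were called without WT drought replicate 2.

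Same-numbered replicates did not deviate together (correlations of -0.132 to 0.059), so the numbers were not taken as pairs. With a replicate block, 4628 genes were called for OE against WT in normal culture, 4669 after drought, 17753 for drought in OE, 14912 for drought in WT and 4410 for the interaction, and no call on the 8 kinases changed (CIPK03 interaction -1.40, adjusted p = 0.0375). Depth is known only from coverage, so no counting error can be given for genes near 1 TPM.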
